A study of Mus musculus with 8 samples.

Results

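The cells described here are the Tet-TKO cells of chimaeric mouse embryos, followed from embryonic day (E) 7.5, when gastrulation is under way, to E8.5, when organs begin to form. They were taken as all cell barcodes of the 5 Tet-TKO libraries with at least 1500 UMIs (unique molecular identifiers, each marking 1 captured RNA molecule), at most 30% mitochondrial UMIs and at most 35% UMIs of ribosomal protein genes. These limits left 25426 cells of the 49866 kept in all 8 libraries of the chimaeras. The only E7.5 library gave 5513 of them, and the 4 E8.5 libraries, numbered 1 to 4, gave 7045, 9552, 2304 and 1012.

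Both stages were made with 1 line of ES cells of genotype TET TKO and mixed C57BL/6J-129Sv background, which lacks Tet1, Tet2 and Tet3 and carries a tdTomato-tagged histone H2B driven by the CAG promoter. The cells were injected into C57BL/6J host blastocysts, so every Tet-TKO cell grew beside WT host cells. Embryos of a stage were pooled, dissociated and sorted for live single cells with and without tdTomato. WT host libraries, 1 at E7.5 and 2 at E8.5, were used to test gene by gene whether the stage change differed between the genotypes, and strain and genotype go together there. Host shares of cells and summed levels are given below as values only, and their difference from Tet-TKO cells was not tested. The question was which genes and which cells changed with stage in cells without TET enzymes.

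TET enzymes oxidise 5-methylcytosine and so begin the removal of DNA methylation at CpG sites. Over this day the epiblast, the pluripotent layer that gives rise to the embryo proper, passes through the primitive streak and is used up. Its descendants form blood islands, heart, allantois, somites, gut and neural tube, and Hox genes are switched on in the order in which they lie on the chromosome.

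With a single E7.5 library, the stage cannot be told apart from that library, and each p-value assumes that it varies as the E8.5 libraries do. Libraries were not stated to come from separate pools of embryos, so their spread may be technical. The E8.5 libraries fell into 2 pairs. The SD over genes of the log2 difference between libraries was 0.391 for libraries 1 and 2 and 0.474 for libraries 3 and 4, and 0.728 to 0.844 between a library of one pair and a library of the other. Total UMIs ranged from 65601218 to 136982886 per library, and median UMIs per cell were 20741 at E7.5 and 18763, 12176, 40386.5 and 68704 at E8.5. At least 1 tdTomato UMI was found in 61.2% of E7.5 cells and 60.8% to 87.2% of E8.5 cells, against 0.532% to 0.841% of host cells. Libraries shared at most 28 cell barcodes with each other.

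RNA of all 3 Tet genes was detected in the Tet-TKO libraries. A 3′ tag need not cover the mutated part of a gene, so these levels do not check the genotype. Tet3 was at 9.51 CPM (counts per 1e+06 UMIs of a library) at E7.5 and at 23.5, 22.5, 37.5 and 36.4 CPM at E8.5, and it rose (log2 fold change 1.48, SE 0.28, adjusted p = 0.042). Tet1 was at 13.4 CPM and then at 9.93 to 20.9 CPM, so that the groups overlapped. Tet2 was at 2.50 CPM and then at 5.55 to 10.6 CPM, higher in 4 of 4 libraries, without passing the test (adjusted p = 0.071).

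Counts summed per library were compared between the stages with edgeR's quasi-likelihood test over 21294 genes. At the study's limit, an adjusted p of 0.01 with a 2-fold change, 0.0% of genes were called in either direction. The lowest adjusted p was 0.0103, 5167 genes had an unadjusted p under 0.05, and DESeq2 called 998 genes higher and 553 lower at the same limit. At an adjusted p of 0.05, a limit set after these values were seen, 683 genes were higher at E8.5 (3.21% of those tested) and 464 were lower (2.18%). Below, "rose" and "fell" are used of these genes, and counts of list members are to be read against 3.21% and 2.18%. All 4 E8.5 libraries lay at least 2-fold above E7.5 for 1845 genes (8.66%) and at least 2-fold below it for 878 (4.12%), a description that involves no test, and 660 and 412 of the called genes were among them.

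The number of calls moved with the libraries included. Without library 3 none remained at an adjusted p of 0.05 (lowest 0.051), and without library 2 there were 238 higher and 154 lower. With libraries 1 and 2 alone at E8.5 there were 1839 and 1137, and with libraries 3 and 4 alone 3085 and 1980. The rule that named genes was applied at 0.05, as none passed the limit first planned. Of the 101 called genes it named, all lost the call without library 3, 40 without library 2, 20 without library 4 and 8 without library 1. None changed direction, which genes picked for a large change could hardly do. In sums over a library, fewer cells of a type and less RNA per cell cannot be told apart.

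To follow cell types, each cell was thinned to 5000 UMIs and called positive for a list of marker genes when it had a UMI of at least 3 of them. Some markers also belong to the gene lists below, such as Pou5f1, Tnnt2, Klf1, and Hoxa10 and Hoxa11 of the allantois list. Shares of cells and levels of these genes thus rest on the same counts. Shallower cells were left out, 738 at E7.5 and between 76 and 517 per library at E8.5. Of 22 lists that had any positive Tet-TKO cell, 11 were positive in more cells at E8.5 (50.0%) and 3 in fewer (13.6%) at an adjusted p of 0.05 (edgeR).

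The 3 that fell were those of the gastrulating embryo. Epiblast-list cells made up 37.5% of E7.5 cells (95% exact binomial interval 36.2% to 38.94%, counting error only) and 1.51%, 0.908%, 0.359% and 0.109% of E8.5 cells, a log2 fold change of -5.53 (SE 0.81, adjusted p = 0.0033). Library 4 held 1 such cell among 921. Primitive streak-list cells went from 33.0% to 5.78%, 4.87%, 3.37% and 3.37%, and nascent mesoderm-list cells from 16.6% to 1.60%, 0.553%, 0.314% and 0.434%. The lists overlap in what they mark at E7.5, where 14.7% of epiblast-list cells were also positive for the nascent mesoderm list. Among haemato-endothelium-list cells, which should lack these genes, 6 of 76 were epiblast-positive and 9 of 76 streak-positive at E7.5, and 1 at most of each in every E8.5 library.

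Lists of the forming organs were positive in more cells. Cardiomyocyte-list cells were 0.105% at E7.5 and 3.30%, 2.55%, 5.52% and 5.65% at E8.5. Extraembryonic mesenchyme-list cells went from 0.230% to between 5.16% and 11.1%, allantois-list cells from 0.503% to between 4.45% and 11.0%, and brain-list cells from 0.0838% to between 1.38% and 4.31%. These ranges did not meet the E7.5 value for any of them. Pharyngeal mesoderm-list cells were 0 of 4775 at E7.5, which allows a share of up to 0.0628% (3 cells of that total, for counting error only), and 0.753% to 1.66% at E8.5, at least 17.7-fold higher on average. Somite-list cells went from 0.0419% to 0.680%, 1.09%, 2.33% and 2.71%, with libraries 3 and 4 above libraries 1 and 2.

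Erythroid-list cells, the first red cells of the yolk sac, numbered 1 at E7.5 (0.0209%, interval 0.00053% to 0.117%) and made up 1.69%, 2.50%, 2.02% and 1.41% at E8.5 (log2 fold change 6.36, SE 0.90). In WT host cells the same list marked 3.39% at E7.5 and 16.7% and 26.8% at E8.5. No epiblast-list cell was positive for the erythroid, cardiomyocyte or pharyngeal list. Median depth before thinning to equal depth was 20700 UMIs in the epiblast-list cells and 29650 in the erythroid-list cell at E7.5.

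Smaller changes were less firm. Haemato-endothelium-list cells were 1.59% and then 5.90%, 5.62%, 3.73% and 3.47% (adjusted p = 0.040). Surface ectoderm, neural crest and neuromesodermal lists passed as well. All 4 of these calls were lost when library 3 or library 4 was left out, with adjusted p of 0.054 to 0.21, all but that of the surface ectoderm also without library 2 (0.077 to 0.083), that of the neuromesodermal list without library 1 too (0.064), and the neuromesodermal list turned direction when 2 markers sufficed. Neuromesodermal-list cells were 6.70% at E7.5 and 10.8% to 11.9% at E8.5. The list is named for the caudal progenitors of spinal cord and somites, but it shares T with the primitive streak list. The part of streak cells among those positive at E7.5 was not tested. Presomitic, intermediate mesoderm, notochord, gut endoderm, primordial germ cell, visceral endoderm, megakaryocyte and extraembryonic ectoderm lists did not pass. No Tet-TKO cell of either stage was positive for the myeloid list, which by the same 3-cell limit allows a share of up to 0.0628% at E7.5 and 0.0332% to 0.326% at E8.5, whereas 12 and 31 host cells were at E8.5.

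**Figure D1:**
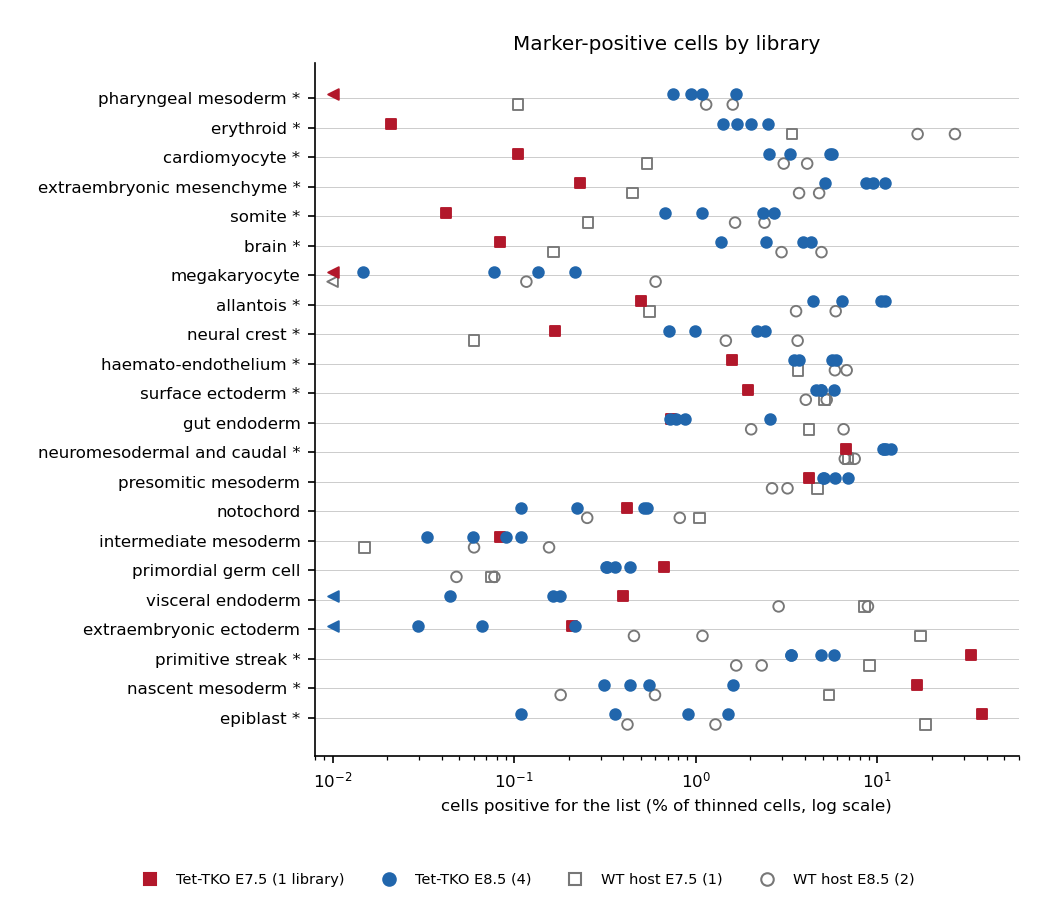
Percent of cells (log axis) positive for each marker list after thinning, with 1 point per library: a red square for Tet-TKO E7.5, blue circles for the 4 Tet-TKO E8.5 libraries, and open grey squares and circles for WT host E7.5 and E8.5. Triangles at the left edge stand for 0 cells and asterisks mark lists that passed in Tet-TKO cells; epiblast falls from 37.5% to at most 1.51%, while erythroid-list cells reach 1.41% to 2.50% in Tet-TKO and 16.7% and 26.8% in host cells.

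Most genes of the primed pluripotency list fell. Of its 19 genes, not all of which are particular to the post-implantation epiblast, 14 fell and 0 rose, against 2.18% and 3.21% of all genes. Their median log2 fold change was -3.10, against 0.07 over all genes. Pou5f1, the central pluripotency factor (chr17, mm10), was at 409.8 CPM at E7.5 (95% Poisson interval 405.9 to 413.7, counting error only) and at 25.99, 18.7, 9.06 and 12.4 CPM at E8.5 (log2 fold change -4.74, SE 0.55, adjusted p = 0.016). Every E8.5 library lay far below the E7.5 library, and the share of thinned cells with a Pou5f1 UMI went from 68.7% to between 3.46% and 8.85%. Tdgf1, the co-receptor of Nodal, was at 187 CPM and then at 4.19, 1.10, 3.16 and 1.66 CPM (-6.34, SE 0.61, adjusted p = 0.014). L1td1, an RNA-binding protein derived from a transposable element, was at 71.9 CPM and then at 3.93, 2.98, 2.99 and 3.40 CPM (-4.58, SE 0.21, adjusted p = 0.0103). Its 4 E8.5 values lay close together.

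Utf1, a chromatin factor of pluripotent cells, was at 112 CPM and then at 1.14 to 2.44 CPM, and Fgf5, a ligand of the primed epiblast, was at 53.4 CPM and then at 0.507 to 2.44 CPM. Nanog, Slc7a3, Pim2, Dppa5a, Zfp42, Pou3f1 and Otx2 fell too, by 1.80 (Otx2) to 4.38 (Nanog) on the log2 scale. Sox2, which the neural tube also uses, was at 29.0 CPM and then at 31.6, 50.8, 48.8 and 49.8 CPM and did not pass. Sall4 was at 214 CPM and then at 99.1 to 132 CPM, below E7.5 in 4 of 4 libraries without passing (adjusted p = 0.064). Other genes with a large fall were the non-coding RNA Platr10, Psors1c2 and Bcl11a. Platr10 was at 21.9 CPM and then at 0.168 to 0.402 CPM.

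The promoters of Pou5f1 and L1td1 are shown as examples from the genes that fell. Their methylation was not measured in these libraries. In the cells whose methylation the paper profiled, it reports that TET-dependent loss of methylation hardly touched promoters. Each window runs from 250 bases before to 50 after the start of the gene (RefSeq, GRCm38.p6), and capitals mark each CG, which reads the same on both strands. The Pou5f1 window, chr17:35505782-35506081 on the plus strand, holds 11 CG, and that of L1td1, chr4:98726504-98726803 on the plus strand, holds 14. Of 13140 tested genes with such a window, 99.2% hold at least 1 CG and 75.9% at least 10.
Pou5f1: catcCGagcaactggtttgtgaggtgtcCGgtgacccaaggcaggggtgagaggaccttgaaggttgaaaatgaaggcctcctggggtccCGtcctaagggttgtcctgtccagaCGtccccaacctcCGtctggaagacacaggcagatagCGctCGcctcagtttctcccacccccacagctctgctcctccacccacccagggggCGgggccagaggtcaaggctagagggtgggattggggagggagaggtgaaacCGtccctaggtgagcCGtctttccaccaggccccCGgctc
L1td1: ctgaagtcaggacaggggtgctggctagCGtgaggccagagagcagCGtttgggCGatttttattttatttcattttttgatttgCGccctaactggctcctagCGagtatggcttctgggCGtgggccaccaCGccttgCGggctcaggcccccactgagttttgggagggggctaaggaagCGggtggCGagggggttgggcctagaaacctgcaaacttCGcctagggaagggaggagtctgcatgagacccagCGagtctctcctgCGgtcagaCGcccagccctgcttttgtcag

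**Figure D2:**
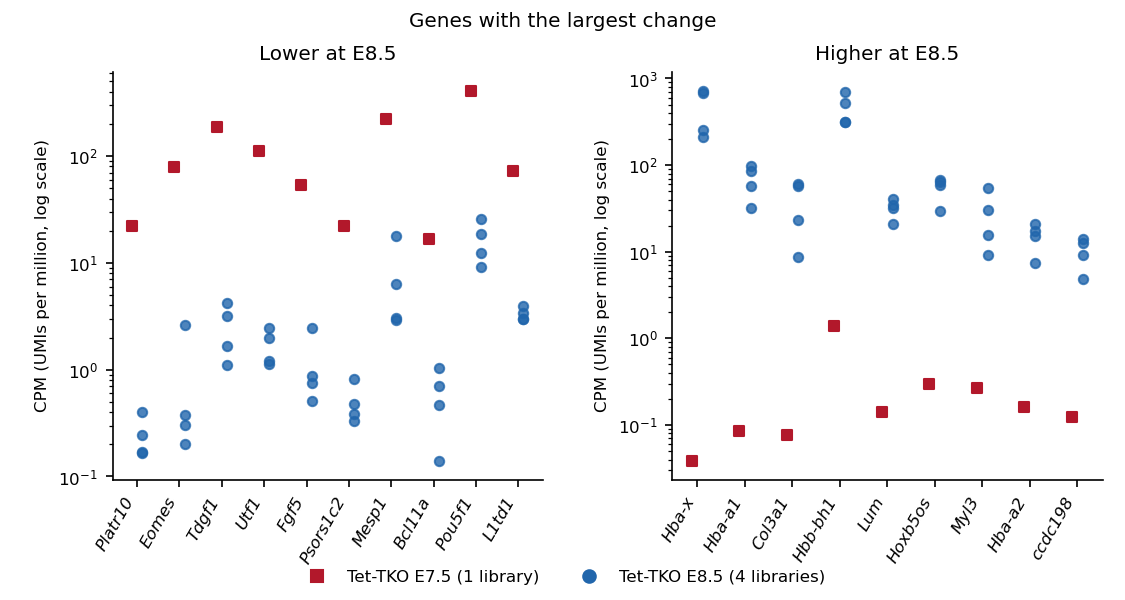
Level in CPM (log axis) of genes with the largest change in each direction among those that passed and reached 10 CPM, with a red square for the E7.5 library and blue circles for the 4 E8.5 libraries. Pou5f1 lies at 409.8 CPM at E7.5 and below 27 CPM in all E8.5 libraries, and Hba-x goes from 0.038 CPM to between 209 and 726 CPM.

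Most genes of the primitive streak and nascent mesoderm fell too. Of 18 such genes 12 fell and 0 rose, against 2.18% and 3.21% of all genes, with a median log2 fold change of -1.90. T, the Brachyury factor of streak and tail bud, was at 146 CPM at E7.5 and at 35.5, 32.1, 28.1 and 27.5 CPM at E8.5 (-2.38, SE 0.24, adjusted p = 0.014). Eomes, which specifies mesendoderm, was at 79.0 CPM and then at 2.61, 0.374, 0.304 and 0.200 CPM (-6.51, SE 1.17, adjusted p = 0.037). Library 1 stood above the other E8.5 libraries for Eomes. Mesp1, the early cardiac mesoderm factor, was at 221 CPM and then at 17.8, 6.31, 3.03 and 2.92 CPM (-4.95, SE 0.95), and libraries 1 and 2 were again the higher ones.

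Fst, the activin antagonist follistatin, was at 158 CPM and then at 46.7 to 50.0 CPM in the 4 libraries (-1.86, SE 0.13, adjusted p = 0.0103), and Mixl1 was at 77.8 CPM and then at 4.39 to 11.7 CPM. Snai1, a driver of epithelial to mesenchymal transition, was at 46.1 CPM and then at 24.3 to 43.9 CPM and did not pass. Of the neighbouring EMT and adhesion list, 4 of 18 rose and 2 fell. Cdh1, epithelial cadherin, fell from 33.2 CPM to between 5.80 and 10.4 CPM, Epcam fell from 314 CPM to between 73.4 and 116 CPM, and the mesenchymal repressors Snai2 and Zeb1 rose by 2.02 and 2.07 on the log2 scale.

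Signalling genes moved in a less uniform way. Over all genes tested 3.21% rose and 2.18% fell. Among the Nodal and Lefty pathway, 5 of 14 fell and 0 rose. The ligands Nodal (12.6 CPM to 1.46 to 2.11 CPM) and Gdf3, the antagonists Lefty2 and Cer1 and the co-receptor Tdgf1 fell, while the receptor Acvr2b was at 87.2 CPM and then at 98.5 to 107 CPM and the transducer Smad4 at 81.7 CPM and then at 86.2 to 113 CPM, neither passing. In the FGF pathway 2 of 19 rose and 3 fell. Fgf8, the streak and tail bud ligand, was at 139 CPM and then at 71.0, 75.3, 59.9 and 56.0 CPM, lower in 4 of 4 libraries without passing (adjusted p = 0.060).

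In the Wnt pathway 4 of 24 rose and 2 fell, against 3.21% and 2.18% of all genes. Wnt3, the ligand that starts the streak, fell from 21.3 CPM to 3.29, 2.11, 1.45 and 1.54 CPM, and the secreted inhibitor Sfrp5 rose from 0.541 CPM to between 7.48 and 10.4 CPM. Wnt1, a ligand of the dorsal midbrain, had 1 UMI at E7.5 and 0.687 to 1.48 CPM at E8.5, a ratio of 118 with a 95% counting interval of 21.1 to 4670. Of 15 genes of the retinoic acid pathway 6 rose and 0 fell. Those that rose were the synthesis enzymes Aldh1a2 and Rdh10, the reductase Dhrs3, the retinol receptor Stra6, the binding protein Crabp1 and the nuclear receptor Rarb. Aldh1a2 was at 9.61 CPM and then at 28.4, 23.9, 34.5 and 42.4 CPM (1.58, SE 0.27), and Rarb at 1.14 CPM and then at 7.24, 7.40, 16.7 and 18.9 CPM (3.26, SE 0.66, adjusted p = 0.049), with libraries 3 and 4 the higher ones for both. Cyp26a1, which breaks down retinoic acid, was at 42.8 CPM and then at 20.9, 19.4, 14.9 and 11.8 CPM, at least 2-fold lower in 4 of 4 libraries without passing (adjusted p = 0.082).

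In the Notch pathway 3 of 16 rose and 1 fell. The segmentation clock gene Hes7 rose from 4.62 CPM to 13.3, 20.2, 15.6 and 16.9 CPM, and Dll3, an oscillating Notch modulator of the presomitic mesoderm, fell from 28.8 CPM to between 9.52 and 12.02 CPM. In the BMP list 1 of 18 rose, Id2, a target gene of the pathway, from 62.3 CPM to 231, 225, 208 and 216 CPM. Id1 and Id3 did not pass. In the Hedgehog list 1 of 12 rose, the ligand Shh, from 0.304 CPM to 4.21, 2.68, 7.17 and 4.03 CPM. Over all genes 3.21% rose, so 1 gene in a list of such a size is not read as a change of the pathway.

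Hox genes of all 4 clusters were among those that rose. Of 37 tested, 22 rose and 0 fell, against 3.21% and 2.18% of all genes, with a median log2 fold change of 2.43. Hoxc8, a trunk-level gene, was at 3.95 CPM at E7.5 and at 56.8, 79.3, 76.8 and 80.0 CPM at E8.5 (4.05, SE 0.27, adjusted p = 0.0103), and the share of thinned cells with a Hoxc8 UMI went from 1.57% to between 17.9% and 23.0%. Hoxb9 went from 3.36 CPM to 33.9, 50.4, 49.0 and 63.5 CPM (3.70, SE 0.35) and Hoxa9 from 2.41 CPM to 43.9, 48.9, 34.7 and 33.6 CPM (3.93, SE 0.45). E7.5 and E8.5 values were well apart for the 3 of them. Hoxa6 had 0 UMIs at E7.5 and 0.409 to 1.01 CPM at E8.5, at least 24.5-fold higher against a floor of 3 UMIs per library.

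Group medians differed along the cluster. Group 1, the most anterior, had a median of 0.34 on the log2 scale and group 2 one of 1.16. Hoxb1 was at 34.4 CPM and then at 25.3, 27.5, 24.9 and 26.5 CPM, and Hoxd1 at 22.1 CPM and then at 20.6 to 41.0 CPM, and neither passed. In groups 3 to 5 all 10 genes tested rose, with group medians of 2.68, 3.25 and 2.90 on the log2 scale. Groups 6 to 9 had medians of 4.40, 2.46, 2.89 and 3.62 and 10 of 12 genes rose. In groups 10 to 13 only Hoxc10 passed the test, going from 0.370 CPM to between 4.81 and 9.03 CPM. Groups 10 and 11 still had medians of 1.90 and 2.27. In them 3 of 3 and 2 of 3 genes lay at least 2-fold above E7.5 in every E8.5 library. The 4 genes of group 13 had a median of 0.43. Hoxc12 and Hoxd12 had too few UMIs to be tested.

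The library pairs differed along the clusters. Hoxa3, Hoxa4, Hoxa5, Hoxb3, Hoxb4, Hoxc4, Hoxc5, Hoxc6 and Hoxd4 were higher in both libraries 3 and 4 than in libraries 1 and 2, for example Hoxc6 at 12.96 and 16.6 against 28.7 and 29.4 CPM. Hoxa9, Hoxa10, Hoxa11, Hoxb6 and Hoxd9 were higher in libraries 1 and 2, for example Hoxa10 at 31.9 and 29.5 against 13.4 and 13.1 CPM. Of the Cdx genes, caudal regulators of Hox clusters, Cdx4 rose from 12.6 CPM to 43.5, 50.1, 49.1 and 44.3 CPM, and Cdx1 and Cdx2 did not pass.

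**Figure D3:**
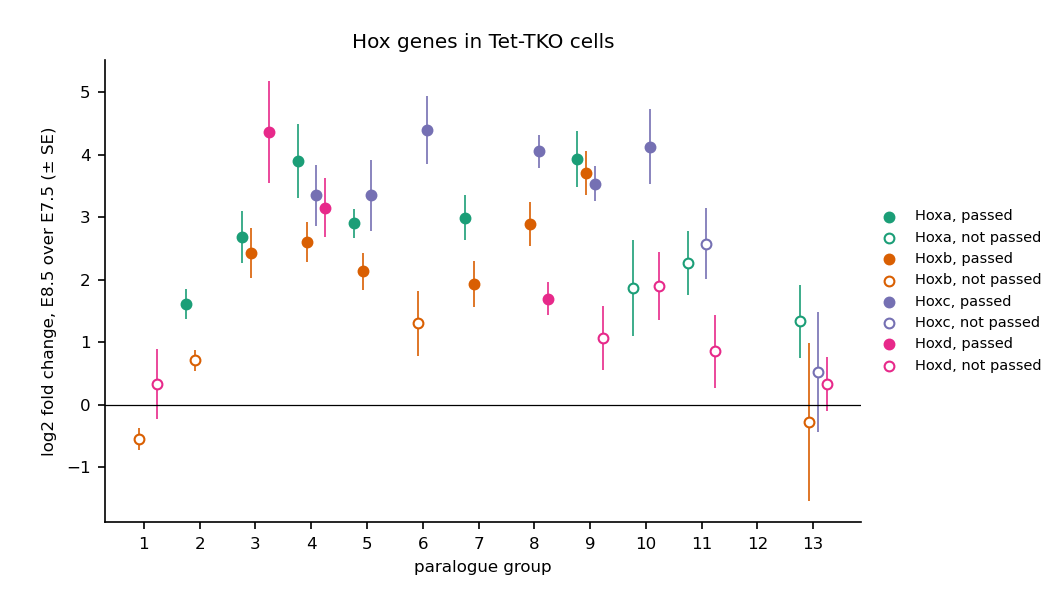
Log2 fold change of tested Hox genes from E7.5 to E8.5 in Tet-TKO cells (vertical axis, bars show the standard error of the fit) by paralogue group (horizontal axis), in a colour per cluster, with filled points for genes that passed an adjusted p of 0.05. Groups 1 and 13 have the medians closest to 0 (0.34 and 0.43), and genes of groups 3 to 9 lie between 1.07 and 4.40. Hoxa6, with 0 UMIs at E7.5, is left out, as is a gene not reported here.

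Most globins and some other blood genes rose. Of 7 globin genes 5 rose, against 3.21% of all genes. Hba-x, the embryonic alpha-type globin (chr11), was at 0.038 CPM at E7.5 (4 UMIs, 95% Poisson interval 0.0103 to 0.0973 CPM) and at 209, 684, 726 and 253 CPM at E8.5 (log2 fold change 13.39, SE 1.68, adjusted p = 0.018). Hbb-bh1, an embryonic beta-type globin, was at 1.39 CPM and then at 314, 693, 521 and 313 CPM (8.23, SE 0.87, adjusted p = 0.015). Hbb-y, another embryonic globin, was at 0.342 CPM and then at 25.4, 175, 305 and 82.5 CPM, higher in 4 of 4 libraries, and did not pass (adjusted p = 0.065). Libraries 2 and 3 were the highest for all 3 genes.

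Globin RNA was also counted in cells that should lack it. In Sox2-positive cells Hba-x was at 0 CPM at E7.5 and at 72.9, 71.1, 216 and 2.31 CPM at E8.5, and the part of free RNA in the globin levels was not tested. In WT host cells the 7 globins summed to 152 CPM at E7.5 and 19550 and 48000 CPM at E8.5, against 2.11 CPM and 595, 1670, 1679 and 728 CPM in Tet-TKO cells. The difference of the Hba-x change between the genotypes was 3.03 on the log2 scale, larger in Tet-TKO, with an SE of 1.92 and an adjusted p of 0.94, and it started from 12.9 CPM in host cells.

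The Hba-x promoter, chr11:32276350-32276649 on the plus strand (RefSeq, GRCm38.p6), is shown as that of the gene with the largest rise, and it holds 2 CG, again in capitals.
Hba-x: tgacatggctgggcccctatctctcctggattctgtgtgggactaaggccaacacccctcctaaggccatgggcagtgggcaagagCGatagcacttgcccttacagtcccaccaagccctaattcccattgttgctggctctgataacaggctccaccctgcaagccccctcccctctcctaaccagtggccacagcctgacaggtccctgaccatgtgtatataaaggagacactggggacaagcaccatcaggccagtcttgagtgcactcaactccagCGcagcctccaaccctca

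Of 19 other erythroid genes 6 rose and 0 fell. Klf1, the erythroid transcription factor, rose from 0.456 CPM to 2.27, 3.20, 2.49 and 1.88 CPM, and Alas2, which starts haem synthesis in red cells, from 0.076 CPM to 1.22, 3.14, 2.64 and 1.97 CPM. Gata1 was at 1.30 CPM and then at 3.73 to 6.03 CPM without passing (adjusted p = 0.083). Urod, a haem enzyme of all cells, was at 64.8 CPM and then at 45.4 to 60.8 CPM and did not pass.

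Of 20 haemato-endothelial genes 5 rose, among them the receptors Tie1 and Tek, the junction gene Cldn5, the integrin Itga2b and Emcn. Emcn, an endothelial sialomucin, had 0 UMIs at E7.5 and 1.14 to 3.81 CPM at E8.5, at least 80.4-fold higher. Kdr, the VEGF receptor, was at 29.8 CPM and then at 39.6 to 54.1 CPM, and Egfl7 at 67.3 CPM and then at 47.9 to 93.6 CPM, neither passing. Of 6 megakaryocyte genes 3 rose, with a median of 4.18, or 3.88 with the gene that had 0 UMIs at E7.5 set at its bound. The myeloid list stood low, at 6.60 CPM in sum at E7.5 and 2.72 to 3.09 CPM at E8.5.

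Some heart muscle genes rose. Of 16 sarcomere genes 4 rose, against 3.21% of all genes. While 12 lay at least 2-fold above E7.5 in all 4 libraries, 8.66% of all genes did so. The median log2 fold change was 4.15. Tnnt2, cardiac troponin T, was at 1.84 CPM at E7.5 and at 68.1, 52.4, 208 and 157 CPM at E8.5 (5.83, SE 1.00, adjusted p = 0.034). Myl4 was at 2.58 CPM and then at 65.5, 50.3, 198 and 167 CPM. Ttn, titin, was at 0.152 CPM and then at 13.2, 8.42, 98.2 and 63.1 CPM and did not pass (adjusted p = 0.093). The 2 pairs of libraries thus did not overlap for these 3 genes. Myl7, the atrial light chain, was at 26.4 CPM and then at 109, 83.7, 338 and 234 CPM (adjusted p = 0.12).

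Among 12 cardiac transcription factors, Gata5, Nkx2-5, Mef2c and Hand2 rose and Mesp1 fell. Nkx2-5, which specifies heart progenitors, was at 1.43 CPM and then at 11.8, 8.27, 16.1 and 14.7 CPM (2.98, SE 0.37, adjusted p = 0.018). Hand1 was at 198 CPM and then at 182, 137, 77.3 and 75.6 CPM, lower in 4 of 4 libraries and not passing.

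Some mesenchyme and matrix genes rose. Of 13 smooth muscle and mesenchyme genes 7 rose, and of 16 collagen genes 4 rose, with 0 falling in either list. Over all genes 3.21% rose and 2.18% fell. Lum, the matrix proteoglycan lumican, was at 0.142 CPM at E7.5 and at 20.7, 41.0, 34.9 and 32.0 CPM at E8.5 (7.65, SE 0.62, adjusted p = 0.011). Col3a1, type III collagen, was at 0.076 CPM and then at 8.68, 23.4, 57.5 and 60.5 CPM (8.71, SE 1.69, adjusted p = 0.045). Acta2, smooth muscle actin, was at 16.5 CPM and then at 157, 199, 322 and 271 CPM (3.67, SE 0.39). All E8.5 values of the 3 genes lay above E7.5, with libraries 3 and 4 higher than 1 and 2 for Col3a1 and Acta2 and not for Lum. Vim, vimentin, was at 294 CPM and then at 324 to 396 CPM and did not pass.

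Among 19 brain patterning factors 6 rose and 1, Otx2, fell, against 3.21% and 2.18% of all genes. En1, of the midbrain-hindbrain boundary, was at 0.285 CPM and then at 6.29, 11.2, 13.6 and 14.3 CPM (5.13, SE 0.55, adjusted p = 0.016). Sox1, an early neural factor, was at 0.636 CPM and then at 4.94, 8.76, 13.2 and 13.7 CPM, and Pax3, of dorsal neural tube and somites, at 1.59 CPM and then at 9.56, 14.1, 20.2 and 19.3 CPM. Library 1 was the lowest at E8.5 for all 3 genes. Pax6 was at 1.20 CPM and then at 6.76, 13.5, 26.3 and 30.4 CPM and did not pass (adjusted p = 0.071). Of 13 neural crest genes 4 rose, Crabp1, Snai2, Twist1 and Sox9, and Foxd3, which early epiblast also uses, fell from 8.21 CPM to 0.614, 1.37, 2.45 and 1.52 CPM. Of 18 somite genes 2 rose, Pax3 and Hes7, and Dll3 fell, and of 15 endoderm and gut genes 3 rose, Pyy and Nkx2-3 among them, and Cer1 and Epcam fell. Krt8, a keratin of simple epithelia, was at 384 CPM and then at 326 to 521 CPM and did not pass.

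Imprinted genes are expressed from 1 parental allele. Of 39 genes of a list of them 10 rose and 0 fell, against 3.21% and 2.18% of all genes, and the median log2 fold change was 0.89. Imprinted genes outside the list were not counted. Plagl1, a zinc finger factor of the imprinted network (chr10), was at 3.48 CPM at E7.5 and at 51.2, 69.4, 72.4 and 84.4 CPM at E8.5 (4.15, SE 0.29, adjusted p = 0.0103). Cdkn1c, a cyclin-dependent kinase inhibitor, was at 58.2 CPM and then at 507, 575, 455 and 403 CPM (2.92, SE 0.37, adjusted p = 0.018). Igf2, the fetal growth factor, was at 2.07 CPM and then at 10.6, 12.5, 17.8 and 19.6 CPM, and the non-coding H19 of the same cluster at 87.4 CPM and then at 340, 324, 471 and 472 CPM. All 4 genes were well above E7.5 in each library.

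Igf2r, its antisense partner Airn, Nnat, Ndn, Mest and Grb10 made up the rest of the listed imprinted genes that rose, by 1.28 (Ndn) to 2.40 (Nnat) on the log2 scale. Phlda2, a growth restrainer of the placenta, was at 1567 CPM at E7.5 and at 1039, 931, 424 and 357 CPM at E8.5, lower in 4 of 4 libraries with the pairs far apart, and did not pass (adjusted p = 0.31). Gnas was at 608 CPM and then at 905 to 971 CPM, also not passing. UMIs do not tell the alleles apart, so loss of imprinting was not measured.

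The Plagl1 promoter, chr10:13090582-13090881 on the plus strand (RefSeq, GRCm38.p6), is shown as that of the listed imprinted gene with the largest rise. It holds 26 CG, in capitals.
Plagl1: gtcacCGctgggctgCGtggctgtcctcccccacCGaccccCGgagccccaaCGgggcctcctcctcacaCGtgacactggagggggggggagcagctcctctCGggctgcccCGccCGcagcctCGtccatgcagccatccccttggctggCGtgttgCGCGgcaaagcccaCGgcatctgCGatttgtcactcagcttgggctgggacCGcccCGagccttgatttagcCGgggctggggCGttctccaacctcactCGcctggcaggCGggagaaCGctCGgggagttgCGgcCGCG

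Of 18 genes of the DNA methylation machinery 2 fell and 1, Tet3, rose, against 2.18% and 3.21% of all genes. Dnmt3b, a de novo methyltransferase, was at 388 CPM at E7.5 and at 72.8, 65.1, 52.2 and 51.3 CPM at E8.5 (-2.82, SE 0.28, adjusted p = 0.015), and its cofactor Dnmt3l was at 1.60 CPM and then at 0.0615 to 0.234 CPM. Of 14 germline genes that DNA methylation is known to silence, 2 fell, Ddx4 and Rpl10l, and 0 rose. Of 9 primordial germ cell genes 3 fell, Prdm14, Dnd1 and Ddx4, and Prdm1 rose.

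Yolk sac, visceral endoderm and trophoblast genes were low in Tet-TKO cells. Of 13 yolk sac and visceral endoderm genes 0 passed, and they summed to 40.5 CPM at E7.5 and 16.7 to 103 CPM at E8.5, against 998.5 to 3392 CPM in host libraries. Of 12 trophoblast genes 2 fell, Eomes and Elf5, against 2.18% of all genes. The list summed to 140 CPM and then to 41.9 to 66.8 CPM. Eomes, which is also a gene of the primitive streak, held 79.0 CPM of this sum at E7.5 and 0.872 CPM on average at E8.5. The fall of the sum is thus not read as one of the whole list. Of 17 glycolysis genes and 8 heterochronic RNA-binding genes 0 passed, and of 18 cell cycle genes 1, Cdkn1c, rose, against 3.21% of all genes. Genes that respond to dissociation were higher in all 4 E8.5 libraries than at E7.5 for 12 of 12 genes, as were 8926 of all 21294 genes tested, with a sum of 414 CPM at E7.5 and 1023, 792, 960 and 940 CPM at E8.5, and Egr1 passed. Their part in the other results was not tested.

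**Figure D4:**
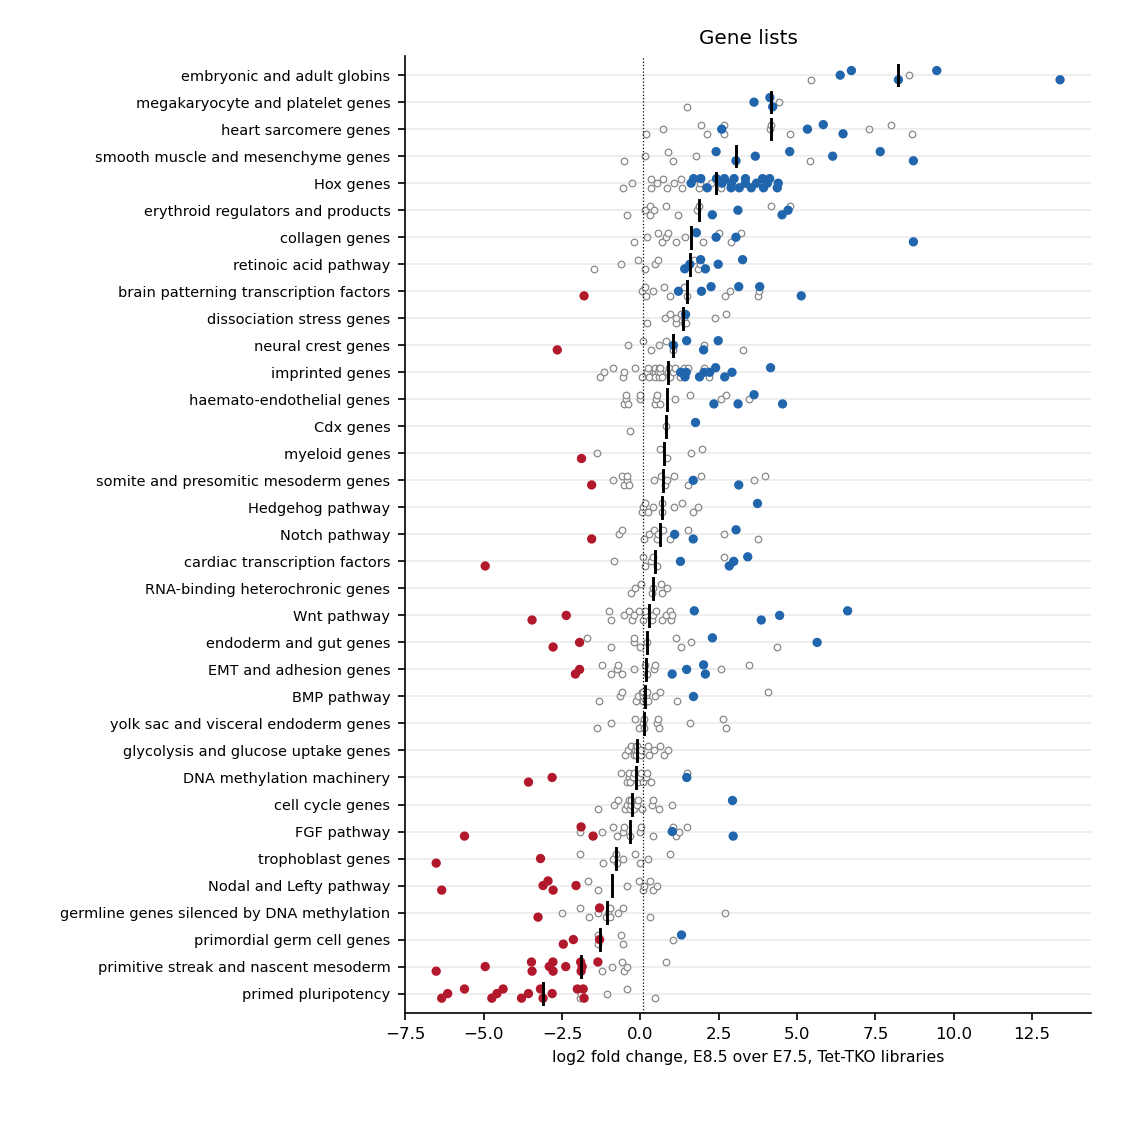
Log2 fold change from E7.5 to E8.5 (horizontal axis) of tested genes of 35 lists (rows), with filled blue points for genes that rose, filled red points for genes that fell and open points for genes that did not pass; the black bar is the median of the list and the dotted line that of all genes (0.07). Lists run from primed pluripotency, with a median of -3.10, to globins, with 8.23; entries with 0 UMIs at E7.5 are not drawn.

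To compare like with like, the test was repeated within 3 sets of cells found at both stages, each cell being in 1 set only. Sox2-positive cells, epiblast and neural, numbered 538 at E7.5 and 732, 1372, 334 and 142 at E8.5. Pdgfra-positive cells, largely mesodermal, numbered 433 and then 701, 902, 352 and 125, and haemato-endothelium-list cells 72 and then 393, 496, 80 and 30. At an adjusted p of 0.01 the Sox2 set gave 53 genes higher (0.345% of 15383) and 37 lower (0.241%), the Pdgfra set 12 higher (0.081% of 14815) and 11 lower (0.0742%), and the haemato-endothelial set 15 higher (0.134% of 11220) and 8 lower (0.0713%). Of the 15, 1 is Cdh5, a marker used to pick those cells, and it is no result. At 0.05 the shares were 2.51% and 2.16% in the Sox2 set, 1.9% and 0.958% in the Pdgfra set, and 1.43% and 0.508% in the haemato-endothelial set. Members of a set still differ in type between stages.

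The counts at 0.01 moved with single libraries. Leaving out library 1, 2, 3 or 4 gave 145, 0, 3 and 0 genes in the Sox2 set, 60, 0, 0 and 28 in the Pdgfra set, and 130, 90, 3 and 27 in the haemato-endothelial set.

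Hoxc8 was called in all 3 sets at 0.01. It was at 0.557 CPM at E7.5 and at 38.4, 71.8, 62.6 and 55.0 CPM at E8.5 in Sox2-positive cells, at 2.46 CPM and 68.2, 82.9, 76.7 and 91.4 CPM in Pdgfra-positive cells, and at 0 and 12.6, 12.8, 15.3 and 14.5 CPM in haemato-endothelial cells, at least 8.10-fold higher in the last. At 0.05, 16 genes rose and 8 fell in all 3. In each set alone, 1.43% to 2.51% of the genes tested were higher and 0.508% to 2.16% lower. Whether the overlap holds without single libraries was not tested. Plagl1 was among those that rose, from 1.86 to between 18.7 and 37.2 CPM in the Sox2 set, from 4.83 to between 76.1 and 150 CPM in the Pdgfra set, and from 2.84 to between 118 and 167 CPM in the haemato-endothelial set. So did the Hox genes Hoxa7, Hoxa9 and Hoxc9, the imprinted Cdkn1c, Mest and Grb10, and Nr2f2, Zeb1 and Zfp503.

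Pou5f1, Tdgf1, Eomes, Wnt3, Vrtn, Kcnk1, L1td1 and Dnmt3b fell in all 3 sets. In haemato-endothelial cells Pou5f1 went from 58.5 CPM to 3.53, 3.76, 2.06 and 3.63 CPM (-4.16, SE 0.31, adjusted p = 0.0014), and in Sox2-positive cells, where it was highest at E7.5, from 708 CPM to 70.4, 52.3, 20.9 and 46.9 CPM. At E7.5, 6 of 76 haemato-endothelium-list cells (7.90%) were epiblast-positive and the whole library held 409.8 CPM of Pou5f1, and the part of free RNA or doublets in the fall within this set was not tested. Within the haemato-endothelial set Hbb-bh1 rose from 31.2 CPM to 619, 935, 1510 and 1327 CPM and Plvap, a vascular diaphragm gene, rose by 3.54 on the log2 scale. Erythroid-list cells were not left out of this set, and their part and that of free RNA in the rise of Hbb-bh1 were not tested. Tal1, which is a marker of this set, is not read there, and Runx1, a regulator of blood stem cell formation, was at 110 CPM and then at 25.7 to 53.6 CPM without passing (adjusted p = 0.059).

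**Figure D5:**
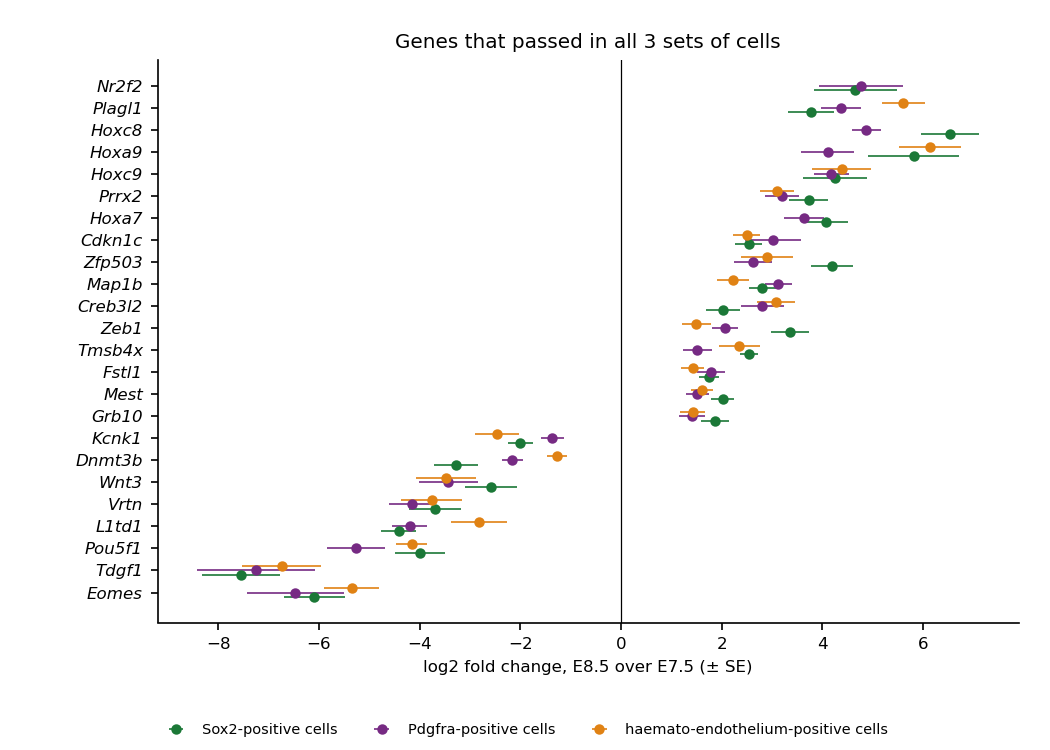
Log2 fold change from E7.5 to E8.5 with its standard error of the 24 genes that passed an adjusted p of 0.05 in all 3 sets, in green for Sox2-positive, purple for Pdgfra-positive and orange for haemato-endothelium-list cells. The 16 genes that rose lie right of 0 and the 8 that fell lie left of it in each set; Nr2f2, Hoxc8 and Hoxa7 have no orange point since they had 0 UMIs at E7.5 in those cells.

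Whether the stage change differed from that of WT host cells was tested over all 8 libraries and 22417 genes. No gene passed at an adjusted p of 0.01 or 0.05 (0.0% in either direction, lowest 0.070), 1449 had an unadjusted p under 0.05, and DESeq2 called 123 genes with a higher and 35 with a lower signed log2 fold change in Tet-TKO than in host cells at 0.01.

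Of the 18 genes with an adjusted p under 0.1, 2 are given here, chosen after their values were seen. Anxa5, an annexin, was at 10.9 CPM and then at 44.0, 54.2, 50.6 and 48.7 CPM in Tet-TKO cells, and at 91.3 CPM and then at 52.7 and 49.4 CPM in host cells, a difference of 2.84 on the log2 scale (adjusted p = 0.070). Id2 went from 62.3 CPM to between 208 and 231 CPM in Tet-TKO and from 493 to 310 and 247 CPM in host cells (2.47). Host libraries held many extraembryonic cells: 17.3% of host cells at E7.5 were positive for the extraembryonic ectoderm list against 0.209% of Tet-TKO cells. Without cells of the erythroid and extraembryonic lists, 26.5% to 29.3% of host cells and 1.27% to 2.60% of Tet-TKO cells, the difference was 2.02 for Anxa5 and 1.70 for Id2, and the lowest adjusted p was 0.17.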

How the data were processed

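Chimaeric embryos were dissociated, sorted by tdTomato and sequenced as droplet single-cell RNA libraries. The files deposited by the authors hold whole-number UMI counts, 1 matrix of genes by barcodes for each library, made by Cell Ranger on mm10 and not normalised (the headers name version 3.1.0). The stage rests on 1 Tet-TKO library at E7.5 and 4 at E8.5. No column of per-sample values was left unused (0).

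Barcodes with fewer than 1500 UMIs, more than 30% mitochondrial or more than 35% ribosomal UMIs were dropped. No doublet caller was run beyond the sort for single cells. Counts were summed per library and tested with edgeR 4.0.16 (R 4.3.3) by glmQLFit and glmQLFTest after filterByExpr and TMM scaling, with Benjamini-Hochberg adjustment over all genes tested. Every adjusted p of a gene or of a list of cells in the text is from edgeR unless DESeq2 (1.42.0) is named. Calls needed a log2 fold change of at least 1 in size. No gene passed an adjusted p of 0.01, so calls at 0.05 are used for whole libraries. Marker-positive cells were counted after thinning each cell to 5000 UMIs, with 3 markers needed, and tested with edgeR against the number of thinned cells. The scripts were tested on simulated data.

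Members and lists were chosen with earlier results of these data known. Named genes were the 10 called genes with the largest change in each direction, leaving out gene models, the transgene and sex-linked markers, and in each list up to 4 called and 2 uncalled members. Other genes in the text were chosen after their values were seen, and a few genes are not reported here. Libraries count as replicates, and p-values rest on the spread between libraries of the same group. In the stage test this is the spread of the E8.5 Tet-TKO libraries alone, since the single E7.5 library has none, and it may be technical.

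Alternatives were DESeq2, other scaling, filters, depths and marker numbers, tdTomato-positive cells, and leaving out libraries or cells. Gene positions are from GENCODE (mm10).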

Additional observations from a re-analysis of the deposited data

Results flagged for a closer look

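In 6 of 186 groups of 4 E8.5 values, 1 library lay apart from the other three by Dixon's test at the 95% level. Chance flags about 1 in 20 groups. Library 1 was apart in 5 of the 6. It held 2.56% of cells positive for the gut endoderm list, against 0.718% to 0.869% in the others, and 2.61 CPM of Eomes, against 0.200 to 0.374 CPM. It had 31.6 CPM of Sox2, against 48.8 to 50.8 CPM, 56.8 CPM of Hoxc8, against 76.8 to 80.0 CPM, and 5.21 CPM of Vrtn. Library 2 had 166 CPM of the immediate early gene Ier2, against 202 to 209 CPM.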

How the results depend on the processing

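At an adjusted p of 0.01 the stage test called 0 genes, and it stayed at 0 with library totals, a minimum of 3000 UMIs, and without erythroid and extraembryonic cells or globins. Genes higher and lower were 998 and 553 with DESeq2, 9 and 17 with its size factors, 274 and 182 with all 8 libraries, 47 and 35 with thinned cells, 23 and 30 with cells holding tdTomato, 1243 and 740 with libraries 1 and 2 alone at E8.5, 821 and 459 with these and libraries 3 and 4 each summed, 2300 and 1577 with libraries 3 and 4 alone, 225 and 170 with no filter, and 0 to 1 and 0 to 4 when 1 library was left out. The looser rules gave 683 and 464 (adjusted p of 0.05) and 1845 and 878 (every library 2-fold). At 0.05, DESeq2 gave 1354 and 754, all 8 libraries 1057 and 712, libraries 1 and 2 alone 1839 and 1137, libraries 3 and 4 alone 3085 and 1980, the summed pairs 1233 higher, thinned cells 308 lower, and leaving out 1 library 0 to 587 and 0 to 431. Under library totals the median change of all genes was 0.229 on the log2 scale, against 0.07.

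For the difference from host cells, 0 genes in each direction became 123 and 35 with DESeq2, and 18 and 0 at an adjusted p of 0.1. With the replicate block, 269 and 106 genes were called on 1 residual degree of freedom. Deviations of same-numbered E8.5 libraries correlated at 0.287 and -0.0349, and neither the labels nor these values settle whether a number marks libraries of the same embryos.

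In the Sox2, Pdgfra and haemato-endothelial sets, 90, 23 and 23 genes became 764, 546 and 179 with DESeq2, 911, 659 and 356 with summed pairs, 495, 404 and 547 with no filter, 719, 423 and 218 at an adjusted p of 0.05, and 0 to 145, 0 to 60 and 3 to 130 without 1 library. Sums of thinned cells gave 155 and 60 in the first pair of sets. Lists of cells called in at least 1 of the fits compared that turned direction were the intermediate mesoderm at 10000 UMIs (2.50 on the log2 scale) and the neuromesodermal list with TMM (-0.18) and with 2 markers (-0.33), and 9 values of lists that were not called changed sign. Of 285 values of the lists 28 lost the call and 9 gained it. Besides leaving out a library, the losses were 3 each with TMM, at 10000 UMIs and with summed pairs. They were 2 each with 2 markers, with 4 markers and with libraries 1 and 2 alone, and 1 with cells holding tdTomato. Over 2782 values of named genes 2481 kept their side of the threshold, 212 lost the call, 89 gained it and 0 called values turned direction, while 59 values that were not called changed sign. The cause of these shifts was not tested.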
